A study of Homo sapiens with 8 samples.

Results

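The RAB genes encode small GTPases that give each membrane compartment of the cell its identity. They were taken as every gene in the deposited expression table whose symbol is RAB followed by a number, with at most 1 letter and 1 further digit after it. This gave 49 of the 14526 genes, and the rule used names only, not expression values. Of 62 RAB symbols listed by role, 13 have no row in the table used here, namely RAB6C, RAB19, RAB33A, RAB41, RAB43, RAB17, RAB4B, RAB25, RAB7B, RAB38, RAB37, RAB44 and RAB40A. RNA was sequenced from 8 samples labelled HepG2, an established line from a human liver carcinoma, all cultured in DMEM with 10% fetal bovine serum. The 4 SB-treated samples had sodium benzoate (SB), a food preservative, at 10 mM for the last 24 h, and the 4 controls did not. Samples of a group are biological replicates, as the series describes them. The comparison addresses how gene expression differs in cells given SB, a source of benzoyl-CoA and so of lysine benzoylation on histones.

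A RAB protein works as a switch. With GTP bound it sits on a membrane and recruits effectors (motors, tethers and scaffolds), and with GDP bound it is pulled back into the cytosol. Exchange factors load it with GTP, GTPase-activating proteins trigger hydrolysis, geranylgeranyl transferase attaches the lipid anchor, and GDP dissociation inhibitors (GDI) carry the inactive form between membranes. Hepatocytes and cells derived from them rely on this machinery for secretion of plasma proteins and for endocytosis.

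The libraries held between 37010896 and 44903216 reads on the genes of the table. Control replicate 1 stood apart: the chi-square of its reads against the other controls was 33.4 to 38.5 per degree of freedom, against 1.52 to 3.81 between any other 2 replicates of a group. Sampling of reads alone gives about 1 on this measure. The adjusted p-values below rest on this spread within groups, which was small apart from control replicate 1. Control replicate 1 was the highest control for 31 of the 49 RAB genes and the lowest for 13, together 89.8%, where the figure over all genes was 82.2%. The cell line label was checked on 20 genes characteristic of hepatocytes, of which 17, albumin (ALB) and the apolipoproteins listed among them, have no row in the table used here. The 3 with a row were low in the controls, with TF at 0.192 ± 0.0188 RPKM (SD, n = 4), and their summed level was 1.57 to 1.78 RPKM in the controls and 2.35 to 2.55 RPKM in the SB-treated samples. The data therefore go against the label on these markers, and the samples are called control and SB-treated below. Of 8 stromal markers 4 have a row, and their sum, nearly all VIM, was 382 to 421 RPKM in the controls and 565 to 588 RPKM in the SB-treated samples. Of 8 blood cell markers 2 have a row, with a sum of 2.01 to 2.37 RPKM and 1.99 to 2.29 RPKM. The part of these differences in the results below was not tested, and in bulk RNA fewer cells of a type and less RNA per cell cannot be told apart.

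RPKM is the number of reads on a gene per kilobase of its counted length, relative to the scaled size of the library, so levels of different genes can be set side by side. Groups were compared on log2(RPKM + 1) with limma across the whole table, and a gene was called higher or lower where its Benjamini-Hochberg adjusted p was below 0.05. The pseudocount of 1 makes the fold changes of genes at a few RPKM too small. RAB genes were called in both directions. RAB7A of late endosomes, RAB1B of the early secretory route, RAB10 of transport to the plasma membrane and RAB5C of early endosomes, all at high levels, were lower with SB. RAB3C of secretory vesicles, RAB15 of recycling, RAB5B of early endosomes and RAB32 of lysosome-related organelles were higher. In all, 13 RAB genes were higher and 18 lower in SB-treated samples, and 18 were not called. Over all genes 65.6% were called, 33.0% higher and 32.6% lower, so the 63.3% of RAB genes called is near the share of the table. The median log2 fold change was -0.022 for the RAB genes and 0.0045 for all genes. The 4 values of one group lay wholly outside those of the other for 30 RAB genes, 12 higher and 18 lower, where 61.5% of all genes did so.

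The balance between rises and falls depended on the scaling. Without the TMM factors, which raise the library sizes of the SB-treated samples relative to the controls, 19 RAB genes were higher and 14 lower, beside 43.0% and 23.1% of all genes. The median log2 RPKM difference of all genes moved from 0.0077 to 0.11 in that setting. On log2(RPKM + 1) the median of all genes became 0.079 and the RAB median 0.058. Without control replicate 1, 17 RAB genes were higher and 21 lower, beside 37.6% and 37.9% of all genes. After a correction of each library for GC content and gene length, 18 were higher and 22 lower, beside 34.1% and 36.6%. This correction was fitted to each library without regard to group. It therefore takes out any difference with SB that follows GC content or length. Whether a change that shrank after it came from SB or from the libraries was not tested. No RAB gene called in the comparison as described changed direction under these settings.

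**Figure D1:**
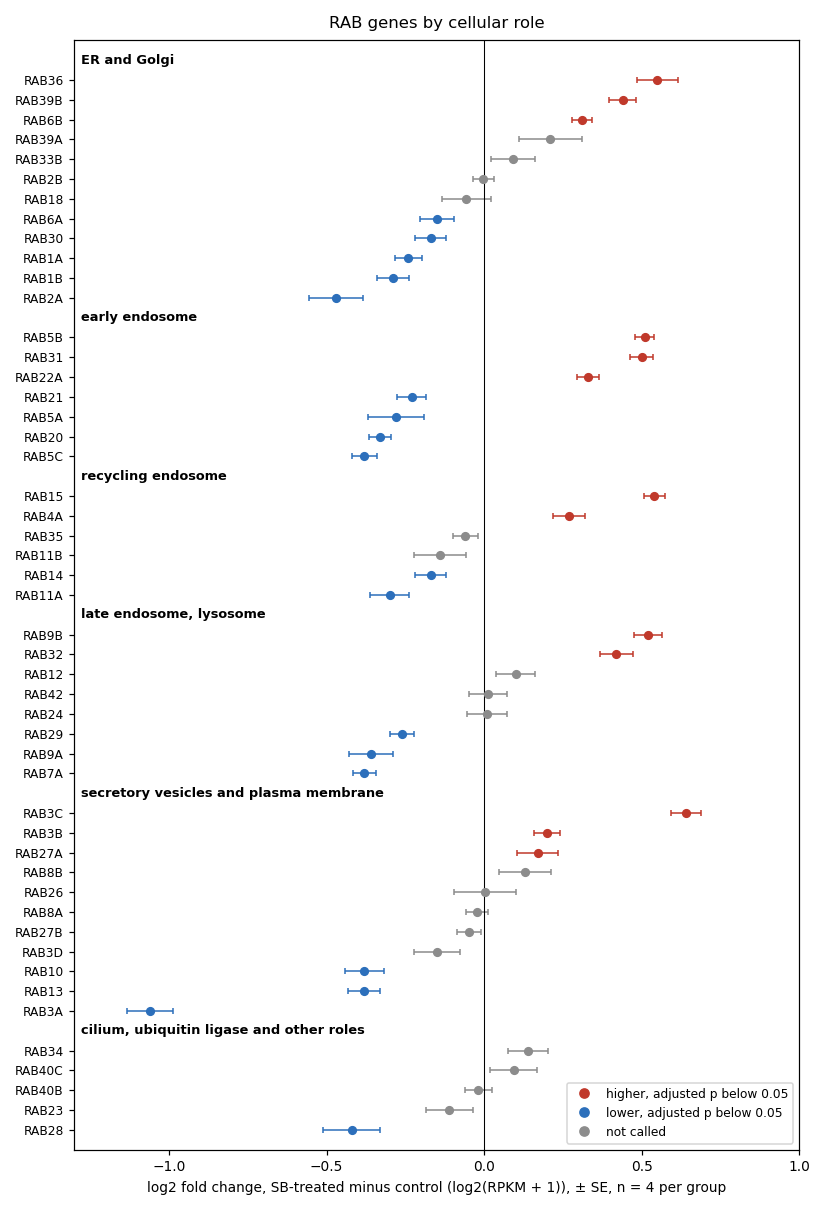
Log2 fold change (SB-treated minus control, on log2(RPKM + 1)) of the 49 RAB genes, grouped by cellular role; points are estimates, bars are ± 1 standard error, n = 4 per group, and colour gives the call at an adjusted p below 0.05. Each compartment but the last holds genes called in both directions, from RAB3A at -1.06 to RAB3C at 0.64; without the TMM factors the uncalled RAB18, RAB2B, RAB35, RAB40B and RAB8A cross from below to above 0.

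The RAB genes of the early endosome were split, with 3 higher and 4 lower of the 7 with a row, so that each of them was called. Calls were common in the whole table, at 65.6% of all genes. That share also stands beside the counts of the other roles below, and no role was tested against it. Without the TMM factors 3 of the 7 were higher and 3 lower, and the same counts held after the correction for GC content and length. RAB5 governs fusion of endocytic vesicles with the early endosome, and its 3 genes did not move together. RAB5B (chromosome 12, 55973949 to 55996683 in the RefSeq annotation of GRCh38.p14) was at 11.7, 11.7, 11.4 and 11.7 RPKM in control replicates 1 to 4. In SB-treated replicates 1 to 4 it was at 17.3, 17.2, 16.8 and 16.9 RPKM. Each SB-treated value was above each control value, and the log2 fold change was 0.51 ± 0.030 (SE, limma adjusted p = 1.08e-06). RAB5C (chromosome 17, 42124979 to 42154989) stood at 44.8, 49.2, 44.8 and 47.6 RPKM in the controls. It fell to 35.5, 35.9, 35.8 and 35.2 RPKM with SB, again without overlap (log2 fold change -0.38 ± 0.039, limma adjusted p = 2.48e-05). RAB5A (chromosome 3, 19947097 to 19985175) had control values of 37.5, 27.3, 28.1 and 27.8 RPKM and SB-treated values of 24.9, 24.4, 23.7 and 25.0 RPKM. Control replicate 1 was far above the other 3 controls here, and the log2 fold change of -0.28 (limma adjusted p = 0.0202) became -0.17 without it (adjusted p = 3.35e-04) and -0.14 after the correction for GC content and length (adjusted p = 0.0344).

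RAB31 and RAB22A, relatives of RAB5 that act between the trans-Golgi network and endosomes, both rose. RAB31 (chromosome 18, 9708301 to 9862551) went from 26.4, 24.6, 25.1 and 24.7 RPKM to 37.1, 34.8, 36.5 and 35.7 RPKM. That was a rise of 42.9% in the mean, with no overlap, and a log2 fold change of 0.50 ± 0.037 (limma adjusted p = 3.47e-06). RAB22A, with a log2 fold change of 0.33, rose from 3.31 ± 0.150 to 4.40 ± 0.0216 RPKM (SD, n = 4). RAB20, a gene of endosomes and phagosomes at the low end of the family, fell from 1.81 ± 0.0747 to 1.23 ± 0.0528 RPKM on 69 to 118 reads per library. Its log2 fold change was -0.33 (limma adjusted p = 2.84e-05), and -0.52 with a pseudocount of 0.1 in place of 1. RAB21, which takes part in integrin traffic, also fell. Its log2 fold change was -0.23 (adjusted p = 0.00207). RAB5A was not called without the TMM factors (-0.18, adjusted p = 0.0954) nor when SB-treated replicate 3 was left out (-0.26, adjusted p = 0.0519), and RAB21 was not called after the correction for GC content and length (-0.082, adjusted p = 0.0617).

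Of the 8 genes of the late endosome and lysosome 2 were higher, 3 lower and 3 not called. RAB7A, which directs late endosomes to lysosomes, had the highest level of the family in the controls. It lies on chromosome 3 from 128726183 to 128814798. Its RPKM was 97.1, 92.1, 89.4 and 92.1 in the controls and 70.5, 70.7, 70.1 and 73.3 in the SB-treated samples. The groups did not overlap, and the mean fell by 23.3% (log2 fold change -0.38 ± 0.037, limma adjusted p = 1.66e-05). RAB9A, which acts in return traffic from late endosomes to the Golgi, had 50.9, 40.3, 42.5 and 40.4 RPKM in the controls and 32.4, 33.2, 33.3 and 35.0 RPKM with SB. Its paralog RAB9B, also on the X chromosome, was between 1.88 and 2.23 RPKM in the controls and between 3.29 and 3.62 RPKM with SB. The paralogs thus moved in opposite directions, RAB9A by -0.36 ± 0.070 (adjusted p = 0.00128) and RAB9B by 0.52 ± 0.044 (adjusted p = 6.75e-06) on the log2 scale, both by limma. The fall of RAB9A was -0.10 after the correction for GC content and length (adjusted p = 0.0215).

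RAB32, known from melanosomes and other lysosome-related organelles and from contacts with mitochondria, rose. Its mean was 12.9 ± 0.717 RPKM without SB and 17.7 ± 1.08 RPKM with it (SD, n = 4), with no overlap and a log2 fold change of 0.42 ± 0.053 (limma adjusted p = 8.25e-05). RAB29, a partner of the kinase LRRK2, fell by 17.4% in the mean. RAB12, RAB24 and RAB42 were not called, at log2 fold changes of 0.10, 0.0086 and 0.013. RAB12 was called higher without the TMM factors (0.20, adjusted p = 0.0128), without control replicate 1 (0.17, adjusted p = 2.60e-04) and after the correction for GC content and length (0.24, adjusted p = 6.01e-04). RAB24 shares 44.8% of its annotated exonic bases with MXD3 on the same strand, so that its level is uncertain. The same holds, to a lesser degree, for RAB5C, with 28.8% of its exonic bases shared with an unnamed gene on the same strand, and for RAB13, with 24.8%.

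Of the 6 genes of the recycling endosome, which return cargo to the plasma membrane, 2 were higher, 2 lower and 2 not called. RAB15, a regulator of the endocytic recycling compartment (chromosome 14, 64945816 to 64972336), was at 8.90, 8.83, 8.64 and 8.92 RPKM in the controls and at 13.2, 13.7, 13.4 and 12.9 RPKM with SB. The replicates were close together in both groups, and the mean was 50.6% higher (log2 fold change 0.54 ± 0.033, limma adjusted p = 1.21e-06). RAB4A, the gene of the fast recycling route, rose from 18.8, 16.7, 15.7 and 16.2 RPKM to 20.4, 20.3, 20.4 and 20.9 RPKM. RAB11A, of the slow route through the recycling endosome, moved the other way. It had 36.2, 29.2, 30.0 and 29.7 RPKM in the controls and 25.7, 24.7, 24.8 and 25.3 RPKM with SB. The log2 fold changes were 0.27 ± 0.051 for RAB4A (adjusted p = 0.00115) and -0.30 ± 0.063 for RAB11A (adjusted p = 0.00223), by limma, and neither gene's groups overlapped. RAB14 fell as well, by -0.17 on the log2 scale (adjusted p = 0.0124), a call that was lost without the TMM factors (-0.073, adjusted p = 0.205). RAB11B and RAB35 were not called, with log2 fold changes of -0.14 and -0.059. Both were called lower without control replicate 1, at -0.22 (adjusted p = 0.00394) and -0.083 (adjusted p = 0.0443). The correction for GC content and length also called both lower, at -0.12 (adjusted p = 0.0110) and -0.094 (adjusted p = 0.0394).

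The endoplasmic reticulum and Golgi held the largest group, with 12 genes, 3 higher, 5 lower and 4 not called. RAB1A and RAB1B, which control transport from the endoplasmic reticulum to the Golgi, and RAB2A, of the compartment between them, were all lower in each SB-treated sample than in any control. RAB1B (chromosome 11, 66268639 to 66277492) was at 68.0, 79.4, 78.9 and 77.6 RPKM in the controls and at 62.5, 63.0, 61.6 and 60.9 RPKM with SB. Control replicate 1 was the lowest control for this gene, and without it the log2 fold change was -0.34 in place of -0.29 ± 0.051 (limma adjusted p = 8.04e-04). RAB1A was at 48.6, 42.9, 44.0 and 43.3 RPKM in the controls and at 38.1, 37.0, 36.9 and 38.3 RPKM with SB (log2 fold change -0.24 ± 0.044, limma adjusted p = 9.23e-04), and its log2 fold change was -0.10 after the correction for GC content and length. RAB2A was at 31.2, 23.4, 23.8 and 22.9 RPKM in the controls and at 18.2, 17.2, 17.7 and 18.4 RPKM with SB. Its log2 fold change of -0.47 ± 0.087 (limma adjusted p = 0.00100) was -0.37 without control replicate 1, the highest control. The paralog RAB2B stayed between 11.5 and 12.3 RPKM in the controls and 11.6 and 11.9 RPKM with SB and was not called (log2 fold change -0.0030, adjusted p = 0.941). It was called higher without the TMM factors (0.094, adjusted p = 0.0233) and after the correction for GC content and length (0.080, adjusted p = 0.0244).

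RAB36, a Golgi-associated relative of RAB34, also rose. It was at 1.65, 2.18, 2.25 and 2.11 RPKM in the controls and at 3.53, 3.65, 3.30 and 3.37 RPKM with SB, a log2 fold change of 0.55 ± 0.064 (limma adjusted p = 4.98e-05). RAB39B, best known from X-linked intellectual disability, rose from 10.6 ± 0.604 to 14.6 ± 0.342 RPKM (SD, n = 4; log2 fold change 0.44). RAB6B, the paralog of the Golgi regulator RAB6A that is known from neurons, rose from 6.70, 6.58, 7.03 and 6.74 RPKM to 8.62, 8.62, 8.77 and 8.60 RPKM (log2 fold change 0.31 ± 0.032, limma adjusted p = 2.36e-05, and 0.19 after the correction for GC content and length). RAB6A itself was at 39.5, 34.2, 36.0 and 34.2 RPKM in the controls and at 33.4, 30.4, 32.4 and 32.9 RPKM with SB. Its SB-treated values were below its control values by a narrow margin. The call (log2 fold change -0.15 ± 0.053, limma adjusted p = 0.0297) was lost without the TMM factors (-0.048, adjusted p = 0.414) and in 3 of the 8 fits that left out a sample, those without control replicate 3 (adjusted p = 0.0594), SB-treated replicate 2 (0.0877) or SB-treated replicate 3 (0.0592). RAB30 fell by 0.17 on the log2 scale (adjusted p = 0.0141) and was not called without the TMM factors (-0.10, adjusted p = 0.0929). RAB18, RAB33B and RAB39A were not called, with log2 fold changes of -0.057, 0.092 and 0.21, although RAB18 was called lower after the correction for GC content and length (-0.076, adjusted p = 0.0386). RAB33B and RAB39A were called higher without the TMM factors, at 0.19 (adjusted p = 0.0324) and 0.30 (adjusted p = 0.0213), and without control replicate 1, at 0.16 (adjusted p = 0.00470) and 0.31 (adjusted p = 8.23e-04). The correction for GC content and length called both higher too, at 0.14 (adjusted p = 0.00158) and 0.38 (adjusted p = 0.00163).

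Of the 11 genes of secretory vesicles and the plasma membrane, which serve regulated exocytosis and delivery to the cell surface, 3 were higher, 3 lower and 5 not called. The largest fall and the largest rise of the family were both here, in the RAB3 subfamily, whose proteins act at secretory and synaptic vesicles. RAB3A (chromosome 19, 18196784 to 18204042) was at 4.74, 5.62, 5.13 and 4.25 RPKM in control replicates 1 to 4 and at 1.59, 2.04, 1.91 and 1.86 RPKM in SB-treated replicates 1 to 4. The groups lay far apart, the mean fell by 62.5%, and the log2 fold change was -1.06 ± 0.074 (limma adjusted p = 2.53e-06). RAB3C (chromosome 5, 58582152 to 58859394) was at 0.768, 0.806, 0.638 and 0.873 RPKM in the controls and at 1.68, 1.89, 1.71 and 1.79 RPKM with SB, on 23 to 84 reads per library. The mean was 129% higher. The log2 fold change of 0.64 ± 0.048 (limma adjusted p = 3.40e-06) was 1.11 with a pseudocount of 0.1 and 1.19 with voom on the recovered whole reads. RAB3B rose less, from 2.75, 2.96, 2.92 and 2.99 RPKM to 3.69, 3.29, 3.62 and 3.31 RPKM (log2 fold change 0.20 ± 0.042, adjusted p = 0.00238), and was not called after the correction for GC content and length (0.051, adjusted p = 0.215). RAB3D was at 6.33, 8.33, 8.29 and 8.23 RPKM in the controls and at 6.85, 7.06, 6.66 and 6.91 RPKM with SB. Control replicate 1 lay below every SB-treated sample and the other 3 controls above, so that RAB3D was not called (log2 fold change -0.15, adjusted p = 0.0945) but was called lower without that library (-0.24, adjusted p = 2.65e-05). RAB3D was also called lower after the correction for GC content and length (-0.24, adjusted p = 0.00294).

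RAB10 and RAB13, which act with RAB8 in transport to the basolateral membrane and at tight junctions, fell to a similar degree. RAB10 (chromosome 2, 26033285 to 26137454) was at 56.2, 46.4, 47.8 and 46.1 RPKM in the controls and at 38.6, 36.3, 36.5 and 38.4 RPKM with SB (log2 fold change -0.38 ± 0.062, limma adjusted p = 4.85e-04). RAB13 was at 42.2, 38.1, 40.7 and 36.9 RPKM in the controls and at 30.0, 29.8, 32.0 and 28.6 RPKM with SB (log2 fold change -0.38 ± 0.051, limma adjusted p = 1.40e-04, and -0.24 after the correction for GC content and length). RAB8A, which is close to them in function and level, was not called. It was at 30.9, 28.1, 29.1 and 28.9 RPKM in the controls and at 28.7, 28.9, 28.6 and 28.9 RPKM with SB, so that all 4 SB-treated values fell inside the range of the controls (log2 fold change -0.022, adjusted p = 0.619). RAB27A, the gene of lysosome-related secretion that is lost in Griscelli syndrome, was called higher (log2 fold change 0.17, adjusted p = 0.0353), with groups that overlapped. Its call was lost in 6 of the 8 fits that left out a sample, and was kept without control replicate 1 and without SB-treated replicate 2. RAB8B, RAB26 and RAB27B were not called, with log2 fold changes of 0.13, 0.0028 and -0.047. RAB8B was called higher without control replicate 1 (0.22, adjusted p = 4.46e-04) and without the TMM factors (0.22, adjusted p = 0.0336), and after the correction for GC content and length (0.13, adjusted p = 0.0120). RAB27B was the lowest of the family, with a control mean of 0.161 ± 0.0397 RPKM (SD, n = 4).

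Of the 5 genes of the cilium, of ubiquitin ligases and of other roles 1 was lower and 4 were not called. RAB28, found at cilia and in photoreceptors, was at 25.7, 18.4, 19.1 and 19.1 RPKM in the controls and at 14.6, 14.9, 15.1 and 15.5 RPKM with SB. Its log2 fold change of -0.42 ± 0.090 (limma adjusted p = 0.00257) was -0.31 without control replicate 1, the highest control, and -0.23 after the correction for GC content and length. RAB23, a negative regulator of Hedgehog signalling, RAB34, which acts in ciliogenesis, and RAB40B and RAB40C, which form ubiquitin ligases with cullin 5, had log2 fold changes of -0.11, 0.14, -0.018 and 0.094. RAB34 was called higher without control replicate 3, without the TMM factors (0.24, adjusted p = 0.00958) and after the correction for GC content and length (0.16, adjusted p = 0.00714), which also called RAB23 lower (-0.13, adjusted p = 0.00726). RAB23 shares 57.8% of its exonic bases with BAG2 on the opposite strand. The library kit marked the strand, but whether counting used it is not given in the sources used here, so reads of the 2 genes may not have been told apart. The same holds for RAB1B, with 43.8% of its exonic bases shared with unnamed genes on the opposite strand, and for RAB8A with 39.7%. It also holds for RAB3D, with 24.0% shared with CCDC159 and an unnamed gene, and for RAB1A, with 22.9% shared with CEP68.

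The split within subfamilies was examined as the ratio of 2 paralogs in the same library, since library scaling cancels in it. The table holds 25 RAB genes in 11 subfamilies with more than 1 member, which form 18 pairs. The ratio did not overlap between the groups for 11 pairs. The share of such ratios over other gene pairs of the table was not computed. The 61.5% of single genes of the table that did not overlap is another measure, and pairs within RAB3 and within RAB5 share genes. Each pair without overlap has an exact permutation p of 0.0286, two-sided and not adjusted for the 18 pairs. That value is the smallest that 4 against 4 can give. In 6 pairs 1 gene was called higher and the other lower, and since these were chosen by their calls their ratios are given as a description. Such pairs numbered 5 without the TMM factors, 8 without control replicate 1 and 4 without SB-treated replicate 3. After the correction for GC content and length they numbered 7. RAB3A and RAB3C, RAB5B and RAB5C, and RAB9A and RAB9B were among them each time. RAB5B made up 28.1% ± 2.85 (SD, n = 4) of the summed RPKM of RAB5A and RAB5B in the controls and 41.1% ± 0.538 in the SB-treated samples. Its log2 ratio to RAB5C rose by 0.94, with a range of 0.91 to 0.96 when each sample was left out in turn. RAB5A and RAB5C kept nearly the same proportion, RAB5C making up 60.8% ± 4.43 and then 59.3% ± 0.799 of their sum.

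The largest changes in ratio among the 18 pairs were in the RAB3 subfamily. RAB3C made up 13.6% ± 2.54 of the sum of RAB3A and RAB3C in the controls and 48.9% ± 1.70 with SB, a change of -2.62 in the log2 ratio of RAB3A to RAB3C. RAB3B passed RAB3A, with 37.2% ± 2.87 of their sum in the controls and 65.2% ± 3.43 with SB. The subfamily total was 16.4 ± 1.33 RPKM in the controls and 14.0 ± 0.215 RPKM with SB. RAB9B made up 4.58% ± 0.427 of the RAB9 sum in the controls and 9.29% ± 0.366 with SB, and RAB6B 15.9% ± 0.912 and 21.2% ± 0.718 of the RAB6 sum, so both remained the lesser paralog. In contrast, RAB1B held 62.9% ± 3.08 and 62.3% ± 0.663 of the RAB1 sum and RAB8B 13.2% ± 1.45 and 14.7% ± 0.567 of the RAB8 sum, and these ratios overlapped between the groups. After the correction for GC content and length, the gap in log2(RPKM + 1) fold change kept its side in all 6 pairs. It lay between -0.28 for RAB6A and RAB6B and -1.81 for RAB3A and RAB3C, and was 0.74 for RAB5B and RAB5C. These gaps include the pseudocount of 1 and the log2 ratios above do not, so their sizes cannot be compared. Without the correction the log2(RPKM + 1) fold changes were -0.15 for RAB6A and 0.31 for RAB6B. They were -1.06 for RAB3A and 0.64 for RAB3C, and 0.51 for RAB5B and -0.38 for RAB5C.

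**Figure D2:**
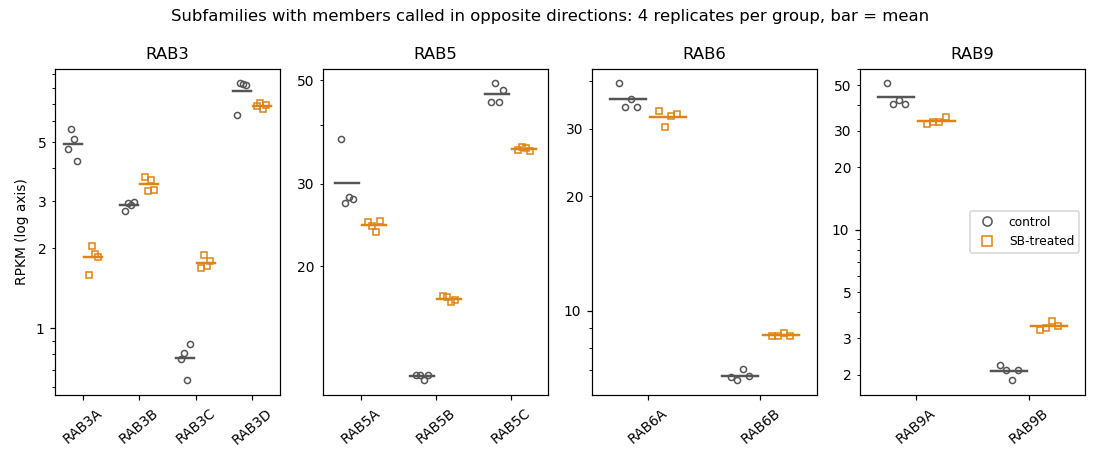
RPKM (log axis) of the 4 RAB subfamilies in which 1 member was called higher and another lower; circles are control replicates, squares SB-treated replicates, n = 4 each, and bars are group means. RAB3A falls to the level that RAB3C rises to, near 1.85 and 1.77 RPKM, and RAB5B rises while RAB5A and RAB5C fall; without the TMM factors RAB5A and RAB6A are lower by the same sign but not called.

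The summed level of the 49 genes was 932 ± 35.0 RPKM (SD, n = 4) in the controls and 845 ± 5.91 RPKM in the SB-treated samples, with 905 to 983 RPKM in the controls against 841 to 853 RPKM. As a share of reads, which needs no scaling factor, the family took 0.248% to 0.270% in the controls and 0.254% to 0.258% in the SB-treated samples, so that this share overlapped between the groups. The overlap came from control replicate 1 alone, at 0.270%. The other controls were at 0.248% to 0.251%, below every SB-treated sample, so that without that library the share was higher with SB while the summed RPKM was lower. The 5 genes with the highest control levels were RAB7A at 92.7 ± 3.22 RPKM, RAB1B at 76.0 ± 5.37, RAB10 at 49.1 ± 4.79, RAB5C at 46.6 ± 2.18 and RAB1A at 44.7 ± 2.65 RPKM. RAB7A and RAB1B differed by more than their spread, while the control ranges of RAB10, RAB5C and RAB1A overlapped. All 5 were called lower.

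Of the 17 RAB genes with a mean of at least 20 RPKM over the 8 libraries, 12 were lower and 1, RAB31, was higher. In the 19 genes between 5 and 20 RPKM 6 were higher and 3 lower, and in the 13 genes below 5 RPKM 6 were higher and 3 lower. The whole table had the same lean: 59.5% of 3857 genes at or above 20 RPKM were lower and 13.7% higher, between 5 and 20 RPKM 28.9% of 5246 genes were lower and 35.6% higher, and below 5 RPKM 17.1% of 5423 genes were lower and 44.1% higher. Spearman's rho between level and log2 fold change was -0.47 over the 49 RAB genes and -0.36 over all genes, given as a description, since the same libraries supply both measures. Without the TMM factors 9 of the 17 genes of the top band were lower and 1 higher, beside 44.5% and 21.6% of all genes at that level. In the middle band 11 were then higher and 3 lower, beside 48.0% and 18.7%.

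**Figure D3:**
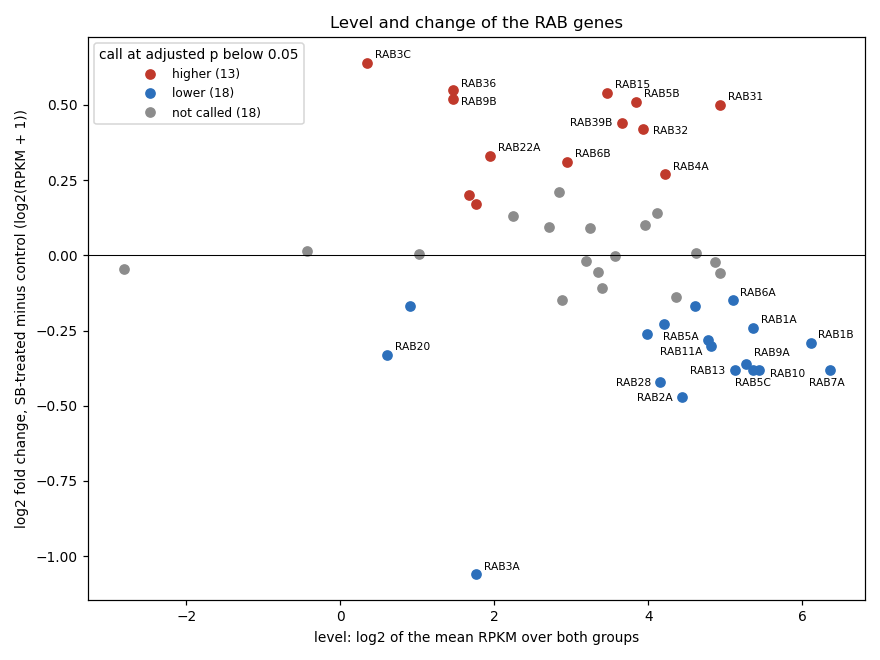
Log2 fold change (SB-treated minus control, on log2(RPKM + 1)) against level (log2 of the mean RPKM over both groups) for the 49 RAB genes, 1 point per gene, coloured by the call at an adjusted p below 0.05. At or above 20 RPKM RAB31 is the only gene called higher, while the rises lie mostly at lower levels; RAB3A, at -1.06, is a low-level gene that fell.

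Promoters were searched for letters of common motifs to see what the RAB genes share that their names do not give. RefSeq windows of GRCh38.p14 from 250 bases before to 50 bases after the start were matched for 40 of the 49 genes and for 10651 genes of the table. The E-box CACGTG, which reads the same on both strands and is part of the motif bound by the lysosomal regulator TFEB and by MYC, was in 6 of the 40, against 10.0% of the table's genes. These 6, RAB29, RAB4A, RAB5A, RAB24, RAB21 and RAB31, were named after their values were seen. Each is in the early endosome, recycling or late endosome list. Those lists hold 7, 6 and 8 of the 49 RAB genes, counted with or without a matched window, and the grouping was not tested. Of the 6 genes with the motif RAB4A and RAB31 were higher, RAB5A, RAB21 and RAB29 lower and RAB24 not called, so they were on both sides. The GC box GGGCGG, on either strand, was in 35 of the 40, against 69.8% of the table's genes, CCAAT in 10, against 36.4%, and TATAAA in 0, against 5.44%. The median GC content of the windows was 68.3% for the RAB genes called higher, 65.7% for those called lower and 65.3% over the table. A match is a description of letters and not of a bound site. The 30 bases around the E-box are shown for the 5 genes where it lies before the start, 5′ to 3′ on the gene's strand, with the motif in capitals, to show the letters around it in genes called higher, called lower and not called.
RAB4A, chr1:229270997-229271026, plus strand, higher: gcccagcccgcgCACGTGcttccggcgcgc
RAB31, chr18:9708229-9708258, plus strand, higher: ccggccggcggcCACGTGacccaccgcggc
RAB5A, chr3:19946964-19946993, plus strand, lower: cactcgcagggtCACGTGacatcctgcctc
RAB21, chr12:71754831-71754860, plus strand, lower: ggcaccggcgctCACGTGacccgaggtgtg
RAB24, chr5:177303732-177303761, minus strand, not called: cggcgcccgcgcCACGTGaccttgcggccc
The first base of the motif lies 20 bases before the start in RAB21, 30 in RAB24, 60 in RAB31, 102 in RAB4A and 121 in RAB5A.

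Proteins listed as acting on RABs were described from lists of 157 genes, of which 144 have a row. The activity of each listed protein was not checked. They leaned towards rises, with 74 higher (51.4%) and 24 lower (16.7%) and a median log2 fold change of 0.13. Of all genes 33.0% were higher and 32.6% lower. Most of the listed genes lie below 20 RPKM, where the table itself had more rises than falls. It had 35.6% higher and 28.9% lower between 5 and 20 RPKM, and 44.1% and 17.1% below 5 RPKM. The part of level in this lean was not tested. Of 37 genes listed as GTPase-activating proteins 21 were higher and 3 lower (median 0.16). Of 52 effectors 29 were higher and 7 lower (median 0.14), and of 47 exchange factors 23 and 11 (median 0.10). Of 8 genes of prenylation and membrane recycling 1 was higher and 3 lower (median -0.046, and 0.056 without the TMM factors). In that setting the other medians were 0.26, 0.21 and 0.20, in the order above, and that of all genes 0.079. After the correction for GC content and length the medians were 0.082, 0.042, 0.025 and -0.063, and that of all genes -0.0048. Of the 143 listed genes with a value 65 were then higher (45.5%) and 37 lower (25.9%), beside 34.1% and 36.6% of all genes.

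Among the genes listed as GTPase-activating proteins the largest rises were in TBC1D5, TBC1D2B and TBC1D9B (log2 fold changes 0.91, 0.79 and 0.63). TBC1D5, which acts on RAB7 at the retromer, rose to 8.72 ± 0.168 RPKM (SD, n = 4) from 4.17 ± 0.328. TBC1D15, another protein that acts on RAB7, fell from 17.0 ± 1.75 to 12.1 ± 0.377 RPKM (log2 fold change -0.45, limma adjusted p = 1.61e-04), followed by GRTP1 at -0.26 and TBC1D23 at -0.16. Of the exchange factors, DENND2A, which carries a DENN domain, rose from 2.16 ± 0.306 to 5.30 ± 0.245 RPKM (limma adjusted p = 1.70e-06), the largest rise of its list. DENND6B and SBF1 followed at 0.68 and 0.56, the last of which was 0.25 after the correction for GC content and length. DENND1C, which acts on RAB35, fell from 2.27 ± 0.195 to 0.964 ± 0.0780 RPKM (log2 fold change -0.74, limma adjusted p = 2.31e-06), and TRAPPC5, a subunit of the TRAPP complexes that activate RAB1, and RAB3IL1, which activates RAB8 and RAB3A, fell by 0.52 and 0.38 on the log2 scale.

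MICALL1, an effector of RAB8, RAB13 and RAB35 on recycling tubules, had the largest rise of these lists, from 19.1 ± 2.43 to 51.3 ± 2.37 RPKM (log2 fold change 1.39 ± 0.083, limma adjusted p = 1.14e-06). It is in a list of upregulated genes that the study chose on these samples, so its rise is not independent of that choice. SYTL5, which binds RAB27A, rose from 11.9 ± 0.805 to 29.4 ± 0.708 RPKM (log2 fold change 1.24 ± 0.047, limma adjusted p = 1.13e-07), and RAB11FIP3, which binds RAB11, by 0.63 on the log2 scale and by 0.33 after the correction for GC content and length. RILP, the effector that ties RAB7 to dynein, fell from 1.87 ± 0.197 to 1.06 ± 0.0738 RPKM (log2 fold change -0.48, limma adjusted p = 4.02e-05). The RAB9 effector RABEPK and the RAB8 and RAB10 partner RILPL2 fell by 0.47 and 0.42 on the log2 scale. Of the genes that lipidate and recycle RABs, RABGGTB, the catalytic subunit of geranylgeranyl transferase, fell from 86.5 ± 8.15 to 62.0 ± 2.62 RPKM (log2 fold change -0.47 ± 0.063, limma adjusted p = 1.37e-04, and -0.23 after the correction for GC content and length). GDI2, which extracts inactive RABs from membranes, stood at a control mean of 174 ± 9.46 RPKM, above every RAB gene, and fell by 0.21 on the log2 scale. The chaperone RABIF rose by 0.13. The call of TBC1D23 was lost without the TMM factors (-0.062, adjusted p = 0.299) and without SB-treated replicate 1 (adjusted p = 0.0518), 2 (0.0562) or 3 (0.0599).

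**Figure D4:**
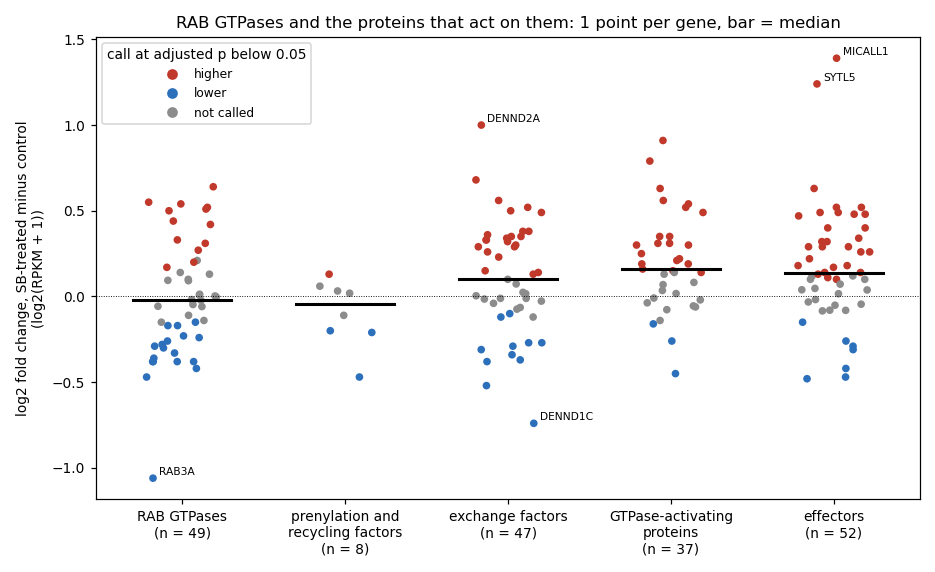
Log2 fold change (SB-treated minus control, on log2(RPKM + 1)) of the 49 RAB GTPase genes and of genes listed as lipidating, activating, inactivating or binding them. Each point is 1 gene with horizontal jitter, colour gives the call at an adjusted p below 0.05 and the bar is the median. The medians are -0.022 for the RAB genes and -0.046, 0.10, 0.16 and 0.14 for the lists to their right. Without the TMM factors they become 0.058, 0.056, 0.20, 0.26 and 0.21 in the same order, and that of all genes 0.079.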

How the data were processed

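Per the labels and the methods of the study, the authors sequenced stranded total RNA libraries (50 bp single reads), mapped reads to hg38 with TopHat2 2.1.0, counted them per gene with featureCounts 1.5.0, retained genes that exceeded 1 CPM in 2 or more samples, and scaled library sizes with TMM in edgeR 3.16.5. The authors deposited RPKM per gene and library. Their mean log2 CPM column was used only to recover whole reads, which came out for 100% of the 14526 genes within 0.01 read. The authors' log2 fold change, p-value and FDR columns were not used, and 0 columns of per-sample values were left out. The recovered reads correspond to scaling factors of 0.956 to 0.968 in controls and 1.03 to 1.04 in SB-treated samples.

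Here log2(RPKM + 1) was fitted with limma 3.58.1 (lmFit, eBayes, R 4.3.3) on all genes, control against SB-treated, 4 each, with Benjamini-Hochberg adjustment over all genes. Exact permutation tests and tables used Python 3.11.15. The fit was tested on simulated data. Members, lists and tests were chosen with earlier results of these data known. Named are the called genes with groups that do not overlap (12 largest rises and falls), the 5 highest in controls, subfamilies called in both directions, and the 3 largest called rises and falls of each pathway list. A gene that this rule names is not reported here. Alternatives were a pseudocount of 0.1, RPKM of at least 1 in at least 4 samples, median-of-ratios scaling, no TMM factors, a replicate block, an intensity trend, voom on whole reads and leaving out each sample. A GC and length correction, made on the 91.5% of genes with a GC value, and leaving out samples for the ratios were added after seeing the data.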

Additional observations from a re-analysis of the deposited data

Results flagged for a closer look

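For 9 of the 98 groups examined (49 RAB genes in 2 groups of 4), 1 sample lay so far from the other 3 on log2(RPKM + 1) that its gap to the nearest, as a share of the whole range, passed Dixon's 95% critical value, where chance gives about 4.90. The share over all genes was not computed. The 98 groups come from the same libraries, so the number given by chance assumes an independence that they lack. In 7 of the 9 groups the sample was control replicate 1, which was the highest or lowest control for 82.2% of all genes. It was the highest control for RAB5A, with a gap of 0.914 of the range, RAB28 (0.886), RAB2A (0.880), RAB11A (0.880) and RAB12 (0.864). It was the lowest control for RAB3D (0.958) and RAB1B (0.851). RAB5A, RAB28, RAB2A and RAB11A fell in SB-treated samples and kept their calls without this replicate, with log2 fold changes of -0.17, -0.31, -0.37 and -0.23. RAB3D and RAB12, which were not called with it, were called without it, RAB3D lower at -0.24 and RAB12 higher at 0.17. In the SB-treated samples, replicate 3 was the high value for RAB12 (0.846) and replicate 4 for RAB14 (0.839).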

How the results depend on the processing

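With a pseudocount of 0.1, the filter on RPKM, median-of-ratios scaling, the intensity trend and voom, no RAB gene gained or lost its call among those tested (47 of 49 with the filter, all 49 otherwise). Replicate numbers are shared by the groups, but deviations of same-numbered samples correlated at 0.38, 0.327, 0.173 and -0.16, so the numbers were not taken to pair the samples; with the replicate block 14 RAB genes were higher and 19 lower, gaining RAB11B and RAB39A. In the fits that left out a sample, 12 to 17 RAB genes were higher and 16 to 21 lower. After the GC and length correction, added after seeing the data, 2 genes of prenylation and recycling were higher in place of 1, 7 GTPase-activating proteins were lower in place of 3 and 12 effectors in place of 7; the first count was also 2 without control replicate 1 (1 to 2 over these fits).

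Directions turned for RAB genes that were not called. Without TMM factors, which moved the median of all genes by about 0.1, RAB18 was at 0.039, RAB2B 0.094, RAB35 0.043, RAB40B 0.077 and RAB8A 0.080. After the GC and length correction RAB2B was at 0.080 (adjusted p = 0.0244), RAB40B 0.090, RAB40C -0.018 and RAB8A 0.056. When a sample was left out, the log2 fold change ranged from -0.10 to 0.030 for RAB18, -0.055 to 0.041 for RAB24, -0.082 to 0.076 for RAB26, -0.015 to 0.015 for RAB2B, -0.045 to 0.053 for RAB42 and -0.040 to 0.0041 for RAB8A. Apart from the scaling itself, the cause was not tested. Depth limits RAB27B, RAB42 and RAB3C most, with as few as 22, 29 and 23 reads in a library.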
